A study of Zea mays with 6 samples.

Results

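A stretch of 248 neighbouring genes in maize leaves is described here, out of 18719 genes that were measured well enough to be tested. It was chosen by its measured genotype difference: it is the longest place in the order of gene IDs where genes called higher or lower in the edf1-D mutant lay close together. Genes were kept when at least 3 of the 6 libraries reached 0.5 FPKM, a unit of fragments scaled by transcript length in kilobases and to 1000000 fragments per library. The kept genes were sorted by ID, and the stretch takes ranks 18183 to 18430, from Zm00001eb426070 to Zm00001eb432340. Members are numbered below by their position in the stretch, from 1 at rank 18183 to 248 at rank 18430. Every value that compares edf1-D with WT along the stretch is therefore given as a description, and no test of the stretch is made.

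The 6 libraries are leaf RNA of field-grown plants at 25 days, 3 from edf1-D and 3 from wild type (WT), all in the maize inbred line W22 as background. The sample titles write edf-D and the genotype label edf1-D. A D after a maize gene symbol conventionally marks a dominant allele. The labels do not say how the edf1-D allele came into W22, how often it was crossed back, or whether a library holds 1 plant or several. The spread between libraries may thus be partly technical.

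Maize gene models are by convention numbered along the chromosomes, so that neighbouring IDs usually stand for neighbouring genes. The files do not show positions, and this order was not checked here. Inbred lines of maize are known to differ from each other in gene content and in the sequence of shared genes. The IDs carry the prefix of the models of another inbred line, B73, so a value reflects both the amount of RNA and how well reads of W22-background plants match those models. The files leave the gene names empty and 0 IDs could be matched to the RefSeq gene table, so no member has a name or a role, the labelled tissue could not be checked against marker genes, and the edf1 locus could not be followed.

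Between the first and the last member the annotation lists 628 gene IDs, of which 248 (39.5%) were kept, against 42.3% of all 44303 IDs. Of the 380 that were not kept, 183 were listed at 0 in every library, and no other value among them went above 3.87 FPKM. The members were somewhat less abundant, with a median of 3.96 FPKM against 5.22 FPKM over all kept genes, and a range of 0.448 to 352.3 FPKM. Their quartiles were 1.46 and 11.3 FPKM, against 1.77 and 16.0 FPKM over all kept genes. A single annotated transcript was listed for 90 members (36.3%), against 42.8% of all kept genes, and the median was 2 transcripts per gene in both sets. The residual SD between libraries of a genotype had a median of 0.26 on the log2(FPKM + 1) scale in the stretch and 0.27 over all kept genes. In number of transcripts and replicate spread the members thus lay close to the rest of the table, and in level somewhat below it. Summed over the members, the stretch held 0.588%, 0.546% and 0.586% of all FPKM in edf1-D replicates 1, 2 and 3, against 0.619%, 0.68% and 0.674% in the WT replicates. Every edf1-D library was below every WT library in this share. Single abundant members weigh heavily in it. Position 173, called lower, had means of 49.7 FPKM in edf1-D and 200.6 FPKM in WT. Position 230, not called, went the other way, with 417.4 FPKM in edf1-D and 287.2 FPKM in WT. The share is thus no measure of a shift across members.

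The members moved apart between genotypes in both directions, with little net shift. Log2 changes of edf1-D minus WT had an SD of 1.04 among members and 0.54 among all kept genes, while their medians were -0.11 and -0.12. In 65 members (26.2%) the change was at least 1 in size, against 5.72% of all kept genes, and in 17 members (6.85%) it was at least 2, against 0.951%. These are values of leaf tissue in bulk, where fewer cells of a type and less RNA per cell cannot be told apart. Of the 248 members, 26 were called higher in edf1-D and 35 were called lower, at a Benjamini-Hochberg adjusted p under 0.05 from limma over all kept genes. Over all kept genes 1.45% were called higher, 2.19% lower and 3.64% in either direction. The stretch was picked for these calls, so nothing is read from the comparison of the shares. Called members had a median log2 change of 1.63 among the higher ones (0.99 to 3.85) and -1.55 among the lower ones (-3.88 to -0.82). Those higher in edf1-D had a median of 5.25 FPKM in edf1-D, and those lower had a median of 10.7 FPKM in WT.

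The counts followed the scaling of the libraries and single libraries. They were 48 higher and 48 lower after median-ratio scaling, 32 and 61 after rescaling to a common sum, and 16 and 18 without edf1-D replicate 1. Without WT replicate 2 the lower members were 19, and without edf1-D replicate 3 also 19. Each of the 61 called members kept its sign in all of these fits, which the lack of overlap between genotypes makes likely from the start.

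**Figure D1:**
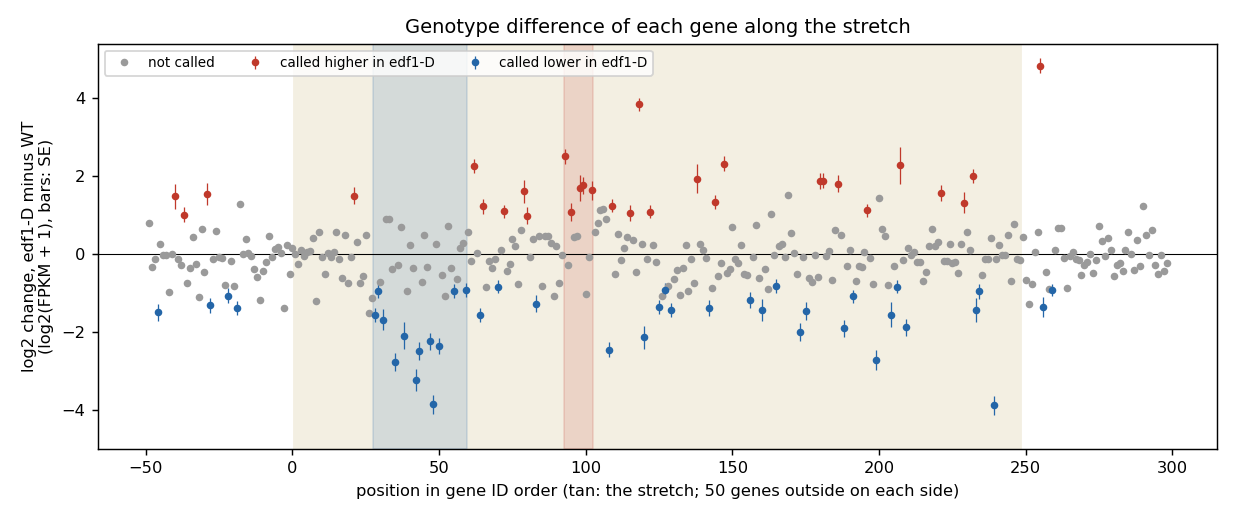
Log2 change (edf1-D minus WT, on the log2(FPKM + 1) scale) of each kept gene against its position in ID order, with 50 genes outside the stretch on each side. Red and blue points are genes called higher and lower in edf1-D, with SE bars, and the shaded bands mark the longest run of lower members (positions 28 to 59) and of higher members (positions 93 to 102).

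In 54 of the 248 members, called ones included, all edf1-D libraries lay above all WT libraries, and in 80 all lay below. Over all kept genes the shares were 8.37% above and 17.9% below. Among the 187 uncalled members alone, 28 lay above and 45 below in this way. Their log2 changes had an SD of 0.54, against 0.42 among the 18038 uncalled genes of the whole table, and 13 members changed by at least 1 in size. For the counts of 28, 45 and 13 no share over all uncalled genes is given here, so nothing is read from them. The largest changes among the 13 members had uneven libraries. Position 26 had 0.24, 0.17 and 0.29 FPKM in edf1-D, against 1.13, 6.5 and 1.76 FPKM in WT, where replicate 2 stood far above the others. Position 169 had 61.26, 122.02 and 54.27 FPKM in edf1-D, against 41.09, 38.21 and 10.02 FPKM in WT. Its genotypes did not overlap, but one library in each genotype lay well away from its other replicates.

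The ends of the stretch are set by windows of genes and not by a change in single genes. The first called member is at position 21 and the last at position 239, so 20 members at the start and 9 at the end lay outside them. The last gene before the stretch had 6.92 ± 1.79 FPKM in edf1-D and 6.08 ± 1.46 FPKM in WT (SD, n = 3 each), and the first member had 40.5 ± 2.9 and 40.9 ± 6.9 FPKM (SD, n = 3 each). At the other end the last member had 0.743 ± 0.225 FPKM in edf1-D and 0.997 ± 0.619 FPKM in WT, and the first gene after it 28.4 ± 5.61 and 20.7 ± 4.0 FPKM (SD, n = 3 each). None of these 4 genes was called. Among the first 50 members 1 was called higher and 10 lower, while the 50 genes before them held 3 higher and 4 lower. Among the last 50 members 4 were called higher and 7 lower, and the 50 genes after them held 1 higher and 2 lower.

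The balance of higher and lower members varied along the stretch, and this variation was not tested. Cut into 8 segments of 31 members, the stretch held 1 higher and 9 lower members in positions 32 to 62, but 8 higher and 2 lower in positions 94 to 124. These were the most one-sided of the 8 segments. The median log2 change was -0.37 in the first of these segments and 0.44 in the second. A low median of -0.4 was also seen in positions 125 to 155, directly after the segment with the highest one, although only 3 members were called higher and 4 lower there. In the other 5 segments the medians lay between -0.21 and 0.03. Other scalings shifted the median of all kept genes to -0.01 (median-ratio and quantile) or -0.22 (common sum). Relative to that median, each of the 8 segments kept its sign under these scalings, with positions 94 to 124 at 0.52 to 0.66 and positions 32 to 62 at -0.36 to -0.24.

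**Figure D2:**
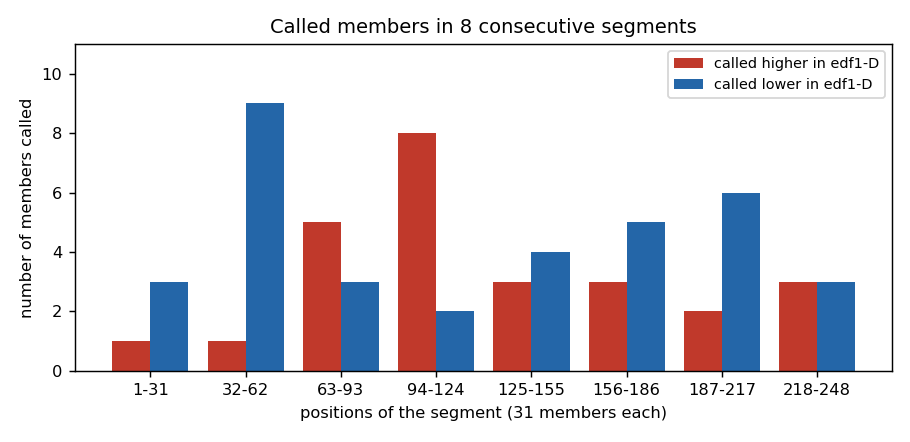
Number of members called higher (red) and lower (blue) in edf1-D in 8 consecutive segments of 31 members. Lower members are most frequent in positions 32 to 62 (9 of 10 called) and higher members in positions 94 to 124 (8 of 10 called).

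Read in order and with uncalled members skipped, the 61 called members formed 26 runs of one direction, 13 higher and 13 lower. Of the higher runs 7 were single genes, and the same number of lower runs were. The longest by far was a run of 12 lower members between positions 28 and 59. It spanned 32 members, 20 of them uncalled. The run was broken under 4 other settings: 3 of the members between were called higher with median-ratio scaling, 2 with a common sum, 4 with quantile normalization and 1 with a pseudocount of 0.1. Of the uncalled members, 9 lay above and 11 below the median change of all genes, and every edf1-D library was above every WT library in 4 of them and below in 7. Over all kept genes, called ones included, 8.37% lay above and 17.9% below in this way, so nothing is read from these counts.

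Of the 12 called members of that run the most abundant was position 35, with 13.24, 7.57 and 9.46 FPKM in edf1-D, against 86.6, 72.95 and 62.65 FPKM in WT. Position 42 had 2.49, 3.53 and 1.23 FPKM in edf1-D, against 27.0, 34.13 and 28.78 FPKM in WT. The gene next to it in order, position 43, had 1.25, 1.99 and 1.2 FPKM in edf1-D, against 13.46, 15.7 and 10.06 FPKM in WT. In all of these the genotypes were far apart, with log2 changes of -2.78 ± 0.23, -3.23 ± 0.27 and -2.5 ± 0.23 (SE). A second adjacent pair stood at positions 47 and 48. Position 47 had 1.12, 1.7 and 1.96 FPKM in edf1-D, against 9.85, 13.16 and 10.71 FPKM in WT. Position 48, Zm00001eb427310, had 0.33, 0.28 and 0.45 FPKM in edf1-D, against 24.56, 20.41 and 12.81 FPKM in WT. Its log2 change of -3.86 ± 0.25 (SE) was the second largest fall of the stretch. Other members of the run changed less. Position 31 had 3.03, 5.48 and 3.28 FPKM in edf1-D, against 17.11, 16.22 and 10.77 FPKM in WT, and position 55 had 5.79, 5.38 and 6.48 FPKM in edf1-D, against 12.78, 12.96 and 10.9 FPKM in WT. Position 38 had 2.12, 2.15 and 0.81 FPKM in edf1-D, against 14.43, 11.76 and 5.98 FPKM in WT, with replicate 3 the lowest in both genotypes. The remaining 4 were low genes. Positions 28 and 29, next to each other, were listed at 0 in every edf1-D library. In WT position 28 had 1.75, 2.55 and 1.68 FPKM and position 29 had 0.86, 1.33 and 0.66 FPKM. Positions 50 and 59 stood at up to 0.05 and 0.31 FPKM in edf1-D and at 3.44 FPKM or more and 1.03 FPKM or more in WT. With 1 library left out, between 7 and 11 of the 12 were called again.

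The longest run of higher members had 5 genes, at positions 93, 95, 98, 99 and 102. Position 93 had 4.63, 5.98 and 3.74 FPKM in edf1-D and was listed at 0 in every WT library. Position 99 showed the same pattern at a lower level, with 3.09, 2.85 and 1.54 FPKM in edf1-D. The gene beside it, position 98, had 14.71, 20.11 and 8.09 FPKM in edf1-D, against 2.87, 5.01 and 2.84 FPKM in WT. Its libraries spread widely within edf1-D, but the lowest of them was still above the highest WT library. Position 102 had 5.65, 8.22 and 6.75 FPKM in edf1-D, against 1.43, 2.19 and 1.03 FPKM in WT. Position 95 had 2.15, 2.78 and 2.03 FPKM in edf1-D, against 1.04, 0.19 and 0.54 FPKM in WT. With 1 library left out, 3 or 4 of the 5 were called again. Each of the 3 other scalings called 1 member between them lower. A run of 5 lower members lay at positions 156 to 175, but of the 15 uncalled members between them 11 lay above the median change of all genes and 4 below, so these genes leaned the other way.

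**Figure D3:**
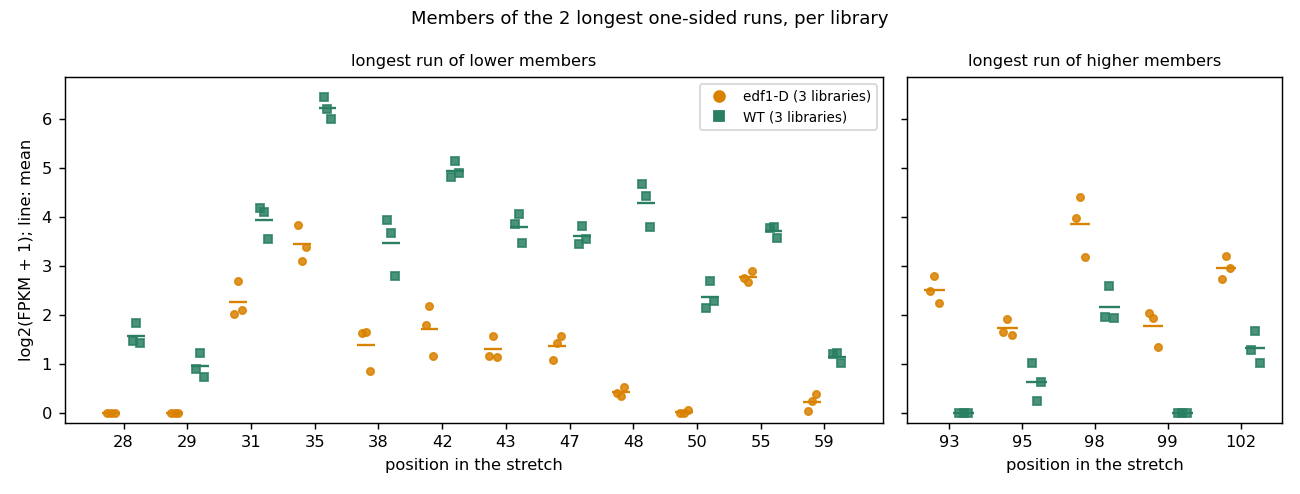
Log2(FPKM + 1) in each library for the 12 members of the longest lower run (left) and the 5 members of the longest higher run (right), with edf1-D as circles left of WT as squares and the mean as a line. The libraries of the genotypes do not overlap in any of the 17 members shown. This holds for all 26 higher and all 35 lower called members, so it is not particular to the runs.

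Among all called members that reached a mean of 5 FPKM in one genotype, the largest rise was that of Zm00001eb429280 at position 118. It had 13.61, 15.13 and 15.01 FPKM in edf1-D, against 0.08, 0.15 and 0.02 FPKM in WT. The edf1-D libraries were close together and WT was almost at 0, and the log2 change was 3.85 ± 0.17 (SE). The second was Zm00001eb431350 at position 207, with 19.17, 20.73 and 17.78 FPKM in edf1-D, against 3.07, 7.95 and 0.95 FPKM in WT. Here the WT libraries differed widely, the log2 change was 2.29 ± 0.48 (SE), and the call was lost without any 1 of the libraries other than WT replicate 2. Position 62, just after the long lower run, had 33.56, 41.45 and 29.21 FPKM in edf1-D, against 6.51, 6.31 and 6.36 FPKM in WT. The 3 WT libraries agreed closely, and the edf1-D mean was 5.43 times theirs. The most abundant of the higher members was position 180, with 75.27, 87.46 and 66.88 FPKM in edf1-D, against 21.84, 23.45 and 15.69 FPKM in WT. Its neighbour at position 181 had 5.02, 4.75 and 5.62 FPKM in edf1-D, against 0.46, 0.95 and 0.6 FPKM in WT. With position 186 they formed another higher run, of 3 members. Position 186 had 13.91, 12.4 and 11.83 FPKM in edf1-D, against 2.5, 4.08 and 2.37 FPKM in WT. Of the other members among the 10 largest rises, positions 21 and 144 had edf1-D means of 5.55 ± 1.01 and 5.37 ± 0.626 FPKM, against WT means of 1.32 ± 0.465 and 1.51 ± 0.0987 FPKM (SD, n = 3 each).

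The largest fall was that of Zm00001eb432070 at position 239, the last called member. It had 1.52, 0.38 and 1.04 FPKM in edf1-D, against 27.02, 28.94 and 25.85 FPKM in WT, a log2 change of -3.88 ± 0.24 (SE). Its 3 WT libraries lay close together, and all edf1-D libraries were far below them. The most abundant called member, position 173, had 47.12, 61.9 and 40.05 FPKM in edf1-D, against 236.61, 206.43 and 158.86 FPKM in WT. Its level in edf1-D was still above that of most members, and the WT mean was 4.04 times the edf1-D mean. Position 125 had 48.73, 48.89 and 39.47 FPKM in edf1-D, against 114.31, 132.55 and 107.78 FPKM in WT. Position 120 had 4.72, 5.48 and 2.34 FPKM in edf1-D, against 22.68, 25.18 and 15.71 FPKM in WT. In both, replicate 3 was the lowest library of each genotype, and the genotypes were clearly apart. Position 199 had 4.49, 2.57 and 2.02 FPKM in edf1-D, against 20.39, 27.76 and 26.15 FPKM in WT. Its leading isoform differed as well, but no change of share was called there.

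Of the 10 most abundant members, positions 173 and 125 were called lower, as given above, and the other 8 were not called. Position 230 had 435.23, 442.88 and 374.12 FPKM in edf1-D, against 364.4, 284.51 and 212.59 FPKM in WT, a log2 change of 0.57 ± 0.25 (SE). Position 231, beside it, had 156.75, 229.39 and 112.41 FPKM in edf1-D, against 169.15, 173.73 and 112.1 FPKM in WT, and its genotypes overlapped. Position 56, which lies between members of the long lower run, had 89.73, 93.66 and 93.59 FPKM in edf1-D, against 150.12, 153.29 and 133.32 FPKM in WT. It was lower in every edf1-D library but was not called.

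Some members were near 0 in one genotype, which was counted when all libraries of one genotype were under 0.5 FPKM and all of the other reached 2 FPKM. By this rule 5 members were near 0 in WT, against 0.160% of all kept genes, and 4 were near 0 in edf1-D, against 0.246%. The rule used the contrast by which the stretch was chosen, so these shares are only set side by side. Near 0 in WT were positions 93 and 118, given above, and 3 others. Position 147 had 5.1, 3.41 and 4.29 FPKM in edf1-D, against 0.04, 0.1 and 0.0 FPKM in WT. Position 232 had 4.08, 3.57 and 3.28 FPKM in edf1-D, against 0.19, 0.27 and 0.0 FPKM in WT, and position 221 had 3.66, 2.84 and 2.15 FPKM in edf1-D, against 0.4, 0.34 and 0.16 FPKM in WT. Near 0 in edf1-D were position 48, given above, and 3 less abundant members. Position 108 had 0.0, 0.02 and 0.0 FPKM in edf1-D, against 5.59, 4.48 and 3.63 FPKM in WT. Position 50 had 0.0, 0.0 and 0.05 FPKM in edf1-D, against 3.44, 5.48 and 3.87 FPKM in WT, and position 64 had 0.29, 0.12 and 0.33 FPKM in edf1-D, against 2.65, 2.67 and 2.71 FPKM in WT. In order, those near 0 in edf1-D stood at positions 48, 50, 64 and 108, and those near 0 in WT at positions 93, 118, 147, 221 and 232. The kinds overlapped in order only at position 93 (near 0 in WT) and position 108 (near 0 in edf1-D), which are 15 places apart. Listed at exactly 0 in every library of one genotype and at 1 FPKM or more in all of the other were 3 members for WT (0.155% of all kept genes) and 1 member for edf1-D (0.144%). A value listed at 0 can be below detection, and the depth of the libraries is not known.

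**Figure D4:**
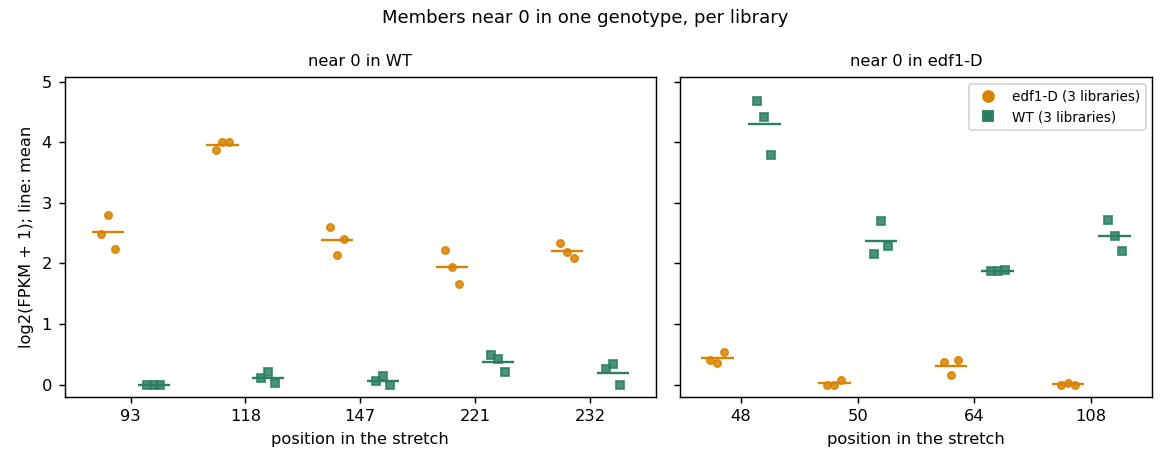
Log2(FPKM + 1) per library of the 5 members near 0 in WT (left panel) and the 4 near 0 in edf1-D (right panel), with edf1-D as circles left of WT as squares and the mean as a line. No library of the genotype near 0 exceeded 0.45 FPKM.

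In 11 places 2 neighbouring members were both called, 7 times in the same direction and 4 times in opposite directions. With 24.6% of the members called, some neighbours would both be called in any order. No such count over all kept genes is given here, so nothing is read from these counts. Same-direction pairs were the 3 pairs of the long lower run, positions 79 and 80, 98 and 99, 180 and 181, and 233 and 234. Positions 79 and 80 had 3.72, 3.54 and 3.69 FPKM and 1.33, 2.23 and 1.19 FPKM in edf1-D, against 1.36, 0.48 and 0.0 FPKM and 0.13, 0.35 and 0.37 FPKM in WT. Opposite pairs stood at positions 64 and 65, 108 and 109, 206 and 207, and 232 and 233. The pair at 108 and 109 was the most complete. As given above, position 108 was near 0 in edf1-D, while position 109 had 1.23, 1.7 and 1.22 FPKM in edf1-D and was listed at 0 in every WT library. Position 65 had 54.7, 53.65 and 46.68 FPKM in edf1-D, against 22.24, 26.0 and 17.06 FPKM in WT, next to a gene near 0 in edf1-D. Position 206 had 11.81, 11.59 and 9.89 FPKM in edf1-D, against 22.83, 20.19 and 18.86 FPKM in WT, next to position 207, which was higher in edf1-D. Reads of near-identical neighbours may be split between IDs, and without known strand reads of overlapping genes cannot be told apart, so single members of such pairs are uncertain.

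Genes can make several transcripts, or isoforms, by alternative starts, splicing or ends, and the share of each isoform in the gene's FPKM is a measure apart from the gene's total. Shares were followed in the 39 members that had 2 or more usable isoforms, at least 5 FPKM on average and at least 1 FPKM in every library. In 7 of the 39 members the share of at least 1 isoform changed (limma, adjusted p under 0.05 over all 5643 transcripts so tested), and over all genes tested this was 1.16%. The totals of 5 of these 7 members were not called. Leading isoforms were compared under the same limits on transcripts and FPKM, with none on mean share. The leading isoform was one in all edf1-D libraries and another in all WT libraries in 6 of 75 members, against 0.514% of 5832 genes. These shares come from the same libraries and contrast that chose the stretch and are a description. Assigning short reads to isoforms is less certain than counting a gene's total.

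The clearest exchange was at position 216, which has 2 annotated transcripts. All of its FPKM was on T002 in the 3 edf1-D libraries (16.94, 22.25 and 13.15 FPKM) and all of it on T001 in the 3 WT libraries (29.08, 26.16 and 18.0 FPKM). The other transcript was listed at 0 each time, while the gene total changed by only -0.47 ± 0.25 (SE, log2). Position 166 was nearly as complete. Its T001 took 95.1% and 95.4% of the gene in edf1-D replicates 1 and 3 and all of it in replicate 2, against 5.4%, 15.9% and 9.64% in WT, and T002 took the rest. Its total was 19.7 ± 1.79 FPKM in edf1-D and 17.0 ± 2.52 FPKM in WT (SD, n = 3 each), with overlapping libraries.

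Position 22 is one of the most abundant members, with 278.9 ± 49.2 FPKM in edf1-D and 223.5 ± 39.8 FPKM in WT (SD, n = 3 each). Its T001 made up 1.01%, 0.679% and 0.199% in edf1-D, against 44.5%, 44.1% and 41.9% in WT. In amount T001 stood at 2.77, 2.24 and 0.46 FPKM in edf1-D, against 108.48, 109.84 and 74.38 FPKM in WT. T002 was the leading isoform in both genotypes and took 97.7% ± 0.166 in edf1-D and 54.4% ± 1.92 in WT (SD, n = 3 each). One isoform was thus almost missing in edf1-D while the gene as a whole was not lower. Position 45, an uncalled gene between members of the long lower run, had 5 transcripts and a total that was not called. Its T002 took between 22.1% and 33.3% in edf1-D, against 82.4%, 79.2% and 80.8% in WT, and T001 took 28.0%, 24.9% and 26.5% in edf1-D, against 4.71%, 5.67% and 5.32% in WT. The genotypes did not overlap in either share, and in edf1-D the gene's FPKM was spread over more isoforms.

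Position 204 combined both kinds of difference. Its total was 2.7, 1.71 and 1.81 FPKM in edf1-D, against 9.55, 11.5 and 4.4 FPKM in WT, and it was called lower. T005 took the whole gene in edf1-D replicate 1, took 96.5% and 95.6% in replicates 2 and 3, and was listed at 0 in every WT library, whereas T003 took 70.1%, 58.7% and 64.3% in WT and was listed at 0 in every edf1-D library. At position 35, whose total was lower as well, T001 was listed at 0 in edf1-D and held 27.6%, 33.0% and 28.6% in WT. At position 228 T005 took 3.99%, 3.72% and 11.9% in edf1-D, against 43.6%, 44.2% and 44.1% in WT, and the total was not called. The share changes at positions 22, 45, 166, 204 and 216 were called again whichever of the 6 libraries was left out. Those at positions 35 and 228 were called again in 0 and 1 of these 6 fits. With the replicate number as a block, positions 22, 166 and 216 were called again and the other 4 were not.

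Of the 6 members with another leading isoform in each genotype, positions 166, 204 and 216 are given above. At position 199 all FPKM was on T002 in edf1-D, where T003 took 71.2%, 73.2% and 94.3% in WT. This change of share was not called, with WT shares of T003 that differed between libraries. At position 106 T001 took 2.26%, 20.3% and 2.89% in edf1-D, against 49.6%, 58.0% and 61.9% in WT, and T002 led in edf1-D. At position 55, in the long lower run, T001 led in edf1-D with 59.6% ± 10.3 against 39.7% ± 8.78 in WT (SD, n = 3 each), a difference near the spread between libraries. The members with a share change or another leading isoform lay from position 22 to position 228. Of the segments with the most one-sided calls, positions 32 to 62 held positions 35, 45 and 55, and positions 94 to 124 held position 106. The others lay in other segments.

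**Figure D5:**
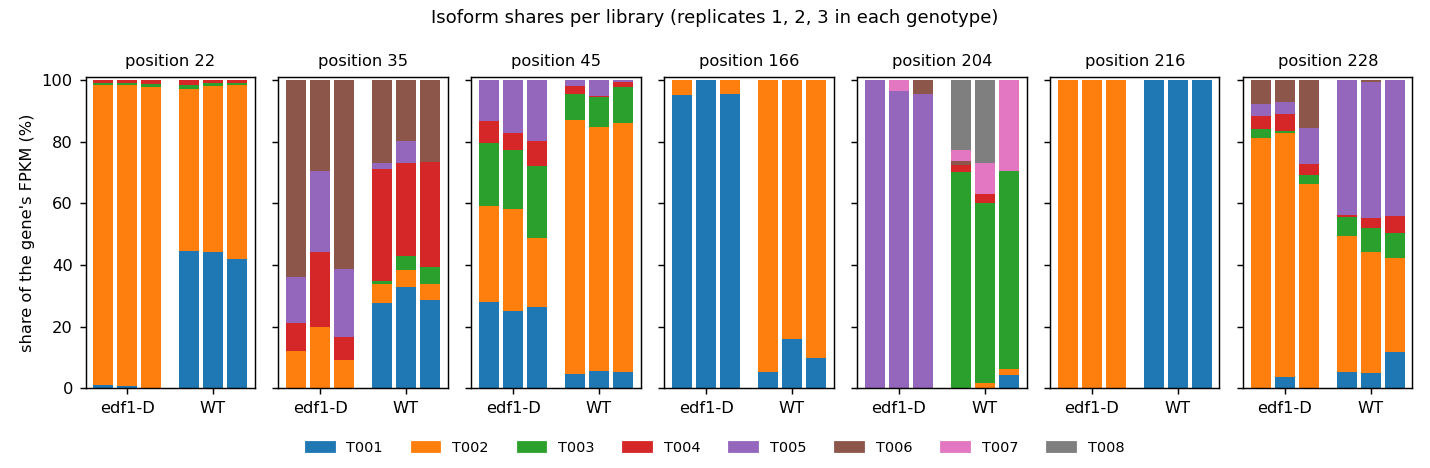
Share of each annotated transcript (T001 to T008) in the gene's FPKM, in percent, for the 7 members with an isoform share change, with the 3 edf1-D libraries left of the 3 WT libraries in each panel. At position 216 the whole bar is T002 in edf1-D and T001 in WT, and at position 166 T001 fills at least 95.1% of each edf1-D bar and at most 15.9% of each WT bar.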

How the data were processed

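The authors deposited 1 value per annotated transcript and library, for 77341 transcripts of 44303 genes in 6 leaf libraries. Per the submitters' processing notes the tools were DESeq2, RSEM, HISAT2 and Trimmomatic 0.36, with no step given for each. Neither the genome build nor the unit is stated in the sources used here. The deposited values were read as FPKM, since they have decimals and their sums per library differ, from 416516.9 to 686251.0. Incomplete TPM values would look alike, so rescaling to a common sum was an alternative. FPKM also varies with a library's mix of transcripts, so that a whole library can shift.

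Depth is unknown. In ratios of low values between libraries, multiples of single reads were matched at 17.2% to 18.2% for the best shift and 14.6% to 14.9% for a typical one (within 0.01 in natural log), so no reads were recovered.

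Transcripts were summed per gene and tested with limma 3.58.1 (R 4.3.3, intensity trend) on log2(FPKM + 1) over all 18719 kept genes. The scale understates changes of low genes. Isoforms were tested with limma on the log2 ratio of a transcript to the gene's others, each plus 1, for mean shares of 10% to 90%. Both fits were checked on simulated data and recovered only a minority of the smaller differences built into them. The isoform fit also recovered only a minority of the larger ones. Replicate numbers were not used as pairs in the main fits. Deviations of same-numbered libraries correlated at -0.19, -0.01 and 0.35 across genes for replicates 1, 2 and 3. These values cannot settle whether same-numbered libraries were handled together.

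The members, the lists and the rules were chosen with earlier results of these data known. Members named one by one are the 10 largest called changes per direction (5 FPKM or more in the higher group, no overlap), those near 0, those with an isoform change and those of the 2 longest runs. Others (positions 26, 56, 65, 79, 80, 109, 125, 169, 206, 230, 231) were picked after their values were seen. IDs are printed for 4 changed members only, because none has a name.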

Additional observations from a re-analysis of the deposited data

How the results depend on the processing

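From 26 higher and 35 lower members the counts went to 48 and 48 under median-ratio scaling and under quantile normalization alike, to 32 and 61 with a common sum, to 13 and 17 at an adjusted p under 0.01, and to 25 and 34 with the replicate block. With 1 library left out they ran from 16 to 21 and from 18 to 31. Scalings called again 60 or 61 of the 61 members, and leaving out 1 library 34 to 45. A pseudocount of 0.1 and no filter stayed within 1.5 times. Members with an isoform share change, 7 as reported, were 3 with the replicate block (positions 22, 166 and 216) and 5 to 7 with 1 library left out. Members near 0 in WT and in edf1-D, 5 and 4 as reported, were 8 and 9 with a minimum of 1 FPKM in the other genotype. They were 1 and 0 when listed at exactly 0 with 2 FPKM or more in the other genotype, and 6 and 4 with a common sum. Of the 4 members given by ID, 3 were called in all 12 alternatives and Zm00001eb431350 in 5. For each of these the cause was not tested. The unknown depth limits members near 0.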
